A study of Mus musculus with 3 samples.

Results

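The genes described here are 7 enzymes and transporters of gluconeogenesis and fructose metabolism: Fbp1, Fbp2, G6pc, Slc37a4, Pck2, Pcx and Khk. They were taken by name, as all non-control probes of the array whose gene name is 1 of the 7, which gave 8 probes (2 for Khk, 1 for each of the others) among 41174 probes and 7 of 21215 gene names. The samples were primary mouse kidney cells, called mPTECs in the labels, from male mice of 1 month. RNA was taken straight after isolation (day 0) and after culture on dishes for 1 day or for 3 days. The medium of the cultured cells was DMEM/F12 with insulin, transferrin, selenium, non-essential amino acids, hydrocortisone, antibiotics and 1% FBS, and no strain, genetic change or number of mice is given in the sources used here. Each day was represented by 1 sample on 1 Agilent 1-colour array, so every fold below compares 2 arrays, with no replicates and no test.

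Gluconeogenesis makes glucose from lactate, glutamine, glycerol and other precursors, and the proximal tubule of the kidney is, with the liver, a main site of it. The route largely runs glycolysis in reverse, but bypasses the irreversible steps with enzymes of its own. Pyruvate carboxylase (Pcx) and phosphoenolpyruvate carboxykinase (Pck1 in the cytosol, Pck2 in mitochondria) undo the pyruvate kinase step, fructose-1,6-bisphosphatase (Fbp1, Fbp2) undoes phosphofructokinase, and glucose-6-phosphatase (G6pc), fed by the transporter Slc37a4 of the endoplasmic reticulum, undoes hexokinase. Ketohexokinase (Khk) starts fructose breakdown, whose products can join the same route. The study's design asks how expression departs from that of fresh cells during culture.

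By day 3, 6 of the 7 genes were at least 4-fold lower than in the fresh cells and Pck2 was 5.93-fold higher. The lower genes ranged from Pcx at 7.45-fold to G6pc at 215-fold. They differed in timing: Slc37a4 and Fbp2 had reached their day 3 level by day 1, and G6pc had covered most of its difference by then. In log2 units, Fbp1 stood further below day 1 on day 3 than day 1 stood below day 0. Khk stood about as far, in an order that depends on the scaling. The later interval was 2 days long and the first was 1 day. The 7 genes were well above background on all 3 arrays, and the dimmest was 20.0 times the lowest signal so classed on its array, so none of these folds is a bound.

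Signals are given as multiples of the 75th percentile over all non-control spots of the same array, and differences as log2 ratios or folds of these. That percentile was 1184, 1509 and 1515 intensity units on day 0, day 1 and day 3. Each probe of the 7 genes had 1 spot. Spots of probes printed repeatedly had a median SD of 0.146 in log2, which corresponds to an SD of 0.207, or 1.15-fold, in the ratio of 2 spots. The spread among probes of 1 gene was larger: its median SD, in log2 ratio, was 0.35 on day 1 and 0.49 on day 3, each relative to day 0, and 0.28 between the cultured samples. Relative to the 75th percentile, the median log2 ratio of all genes tested was -0.12 on day 1 and -0.12 on day 3 against day 0.

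The array measures each gene by a 60-base probe. All 8 probes carry a transcript accession that the RefSeq gene table (GRCm38.p6) pairs with the same symbol, which matters for Fbp1 and Fbp2, since older synonyms of these adjacent genes are interchanged in that table. Positions follow the array files, which use mm9. Those of Fbp1 and Fbp2 lie on chromosome 13, at 62966175 to 62966234 and from 62950852 to 62955367. G6pc is measured on chromosome 11 at 101238947 to 101239006, Slc37a4 on chromosome 9 at 44210987 to 44211045, Pck2 on chromosome 14 at 56167465 to 56167524 and Pcx on chromosome 19 at 4621637 to 4621696. The Khk probes lie on chromosome 5, at 31233555 to 31233614 and from 31232029 to 31232968. No annotation of mm9 was used, so the exon or UTR of each probe is not given. The probes of Fbp2 and the second of Khk span 4516 and 940 bases of the genome, more than their own length. They are shown with that of Pck2, the gene that ran the other way. Fbp2 is the muscle-type isoenzyme, and the second Khk probe reads Khk again on the same arrays. Each of these 3 sequences can be read in at least 1 frame without a stop codon. They are written as the array file has them:
Pck2 probe: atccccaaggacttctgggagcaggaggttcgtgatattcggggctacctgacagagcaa
Fbp2 probe: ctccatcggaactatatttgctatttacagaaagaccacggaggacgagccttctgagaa
Khk second probe: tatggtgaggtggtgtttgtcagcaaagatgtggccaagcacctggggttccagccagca

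**Figure D1:**
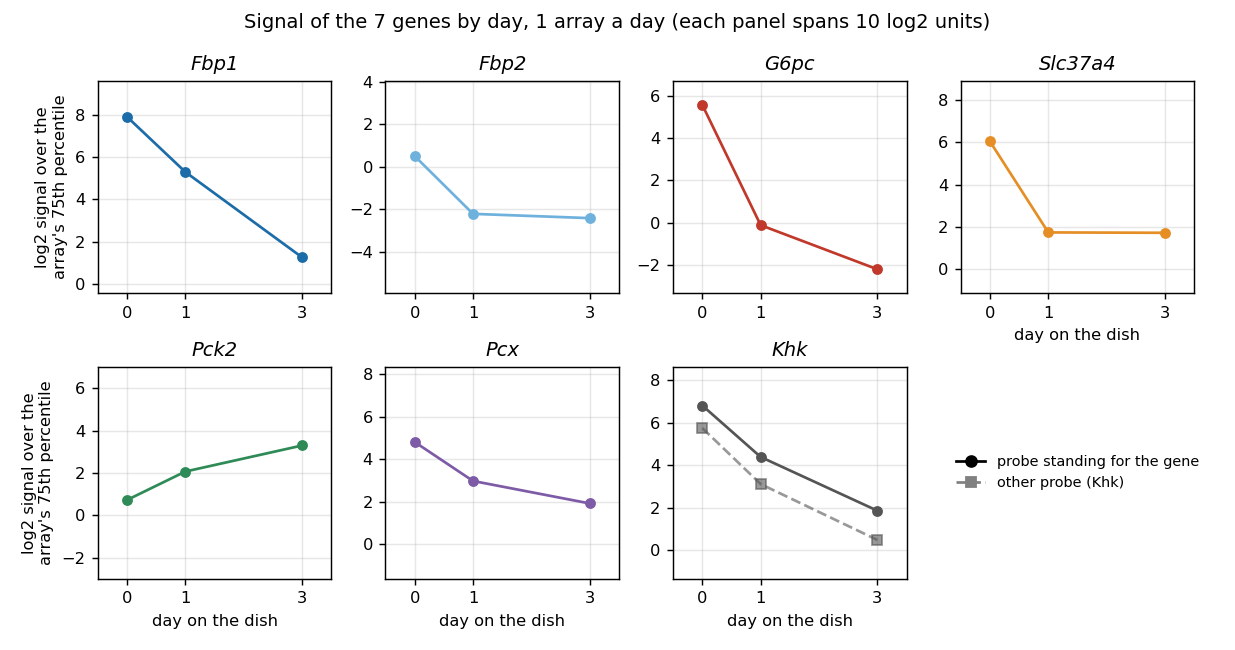
Signal of each of the 7 genes on days 0, 1 and 3, as log2 of the processed signal over the array's 75th percentile, 1 point per array; every panel spans 10 log2 units, so slopes compare between panels but heights of different probes do not. G6pc goes from 5.56 to -0.11 and -2.19, Slc37a4 is level after day 1 (1.74 and 1.73), Pck2 alone goes up (0.73, 2.07 and 3.29), and the 2 Khk probes run nearly parallel.

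Glucose-6-phosphatase frees glucose in the last step of the route. The signal of G6pc was 47.2 times the 75th percentile on day 0, 0.928 times on day 1 and 0.219 times on day 3. It was highest in the fresh cells and went down at each step. It was thus 50.9-fold lower on day 1 than on day 0 and 215-fold lower on day 3, with 4.23-fold between day 1 and day 3. On day 3, 0.465% of the day 0 signal remained. Ranked from the lowest ratio, G6pc was number 11 of 19895 genes on day 1 and number 19 of 20124 on day 3. In log2 units 73.2% of its whole difference lay in the first day.

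Slc37a4 carries glucose 6-phosphate into the endoplasmic reticulum, where G6pc acts on it. Its signals were 65.6 times the 75th percentile on day 0, 3.35 times on day 1 and 3.31 times on day 3. The fresh cells stood apart and the cultured samples were alike. Slc37a4 was 19.6-fold lower on day 1 and 19.8-fold lower on day 3 than on day 0, and the log2 ratio of day 3 against day 1 was -0.02, inside the spread between spots and of the other sign with median centring (0.08), reference gene scaling (0.23) and spike-in scaling (0.44). So 99.6% of the log2 difference lay in the first day. Although both genes serve the same reaction, the log2 ratio of G6pc against Slc37a4 differed by -1.38 on day 1 and by -3.44 on day 3, each against day 0. No scaling that shifts a whole array changes such a difference between a pair of genes. The third gene of this step, the ubiquitously expressed phosphatase G6pc3, had log2 ratios of 0.19 and 0.30 against day 0, and reference gene scaling turns the sign of each.

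Fructose-1,6-bisphosphatase has a liver and kidney form, Fbp1, and a form known from muscle, Fbp2. Fbp1 gave 237.8 times the 75th percentile on day 0, 39.2 times on day 1 and 2.41 times on day 3. Its signal was lower at each later day, with the larger part of the log2 difference in the 2 days after day 1. Per day, the log2 change was -2.60 in the first day and -2.01 from day 1 to day 3. The folds were 6.07-fold lower on day 1 against day 0, 16.3-fold lower on day 3 against day 1 and 98.7-fold lower over the 3 days. In the comparison of day 3 with day 1 it was number 22 from the lowest of 19998 genes, and 39.3% of its log2 difference lay in the first day. Fbp2 gave 1.42, 0.215 and 0.187 times the 75th percentile. Its fresh sample stood apart from the cultured ones, which lay within 1.15-fold of each other, a ratio whose sign changes with reference gene scaling (0.05 in log2) and spike-in scaling (0.25). Fbp2 was 6.61-fold lower on day 1 and 7.60-fold lower on day 3. On day 1 the isoenzymes had nearly the same ratio, with a difference between them of 0.12 in log2. On day 3 the ratio of Fbp1 was lower than that of Fbp2 by a log2 difference of -3.70. Beside Fbp2, the summed signal of the skeletal muscle markers Ckm, Acta1 and Myh4 was 0.300, 0.206 and 0.597 times the 75th percentile on days 0, 1 and 3. On day 3 against day 0 Acta1 was 3.38-fold higher, Ckm 1.49-fold lower and Myh4 1.57-fold lower.

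Pyruvate carboxylase and phosphoenolpyruvate carboxykinase act in turn to turn pyruvate into phosphoenolpyruvate, and here Pcx and Pck2 ran apart. Pcx, which makes oxaloacetate in mitochondria, gave 28.0 times the 75th percentile on day 0, 7.84 times on day 1 and 3.76 times on day 3. Its signal was lower at each step, by 3.57-fold on day 1 and by 2.08-fold from day 1 to day 3, or 7.45-fold in all. Pck2, the mitochondrial carboxykinase, gave 1.65, 4.19 and 9.81 times the 75th percentile. It was higher at each step, 2.53-fold on day 1 against day 0 and 2.34-fold on day 3 against day 1. The log2 ratio of Pck2 against day 0 was 1.34 on day 1 and 2.57 on day 3, and 52.2% of the whole lay in the first day. It stood at number 610 from the highest of 20124 genes on day 3. Between Pck2 and Pcx the log2 ratios differed by 3.18 on day 1 and by 5.46 on day 3. The cytosolic enzyme gene Pck1 was not analysed here, because no probe was found under that gene name.

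Khk phosphorylates fructose. Its brighter probe gave 112.5 times the 75th percentile on day 0, 20.9 times on day 1 and 3.62 times on day 3. The other probe gave 53.8, 8.64 and 1.39 times. Both were lower at each step, and the probes differed little in their ratios. On day 1 Khk was 5.38-fold lower by the brighter probe and 6.23-fold by the other, and on day 3 it was 31.1-fold and 38.7-fold lower. The log2 steps were nearly equal by the brighter probe, -2.43 in the first day and -2.53 over the next 2 days.

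**Figure D2:**
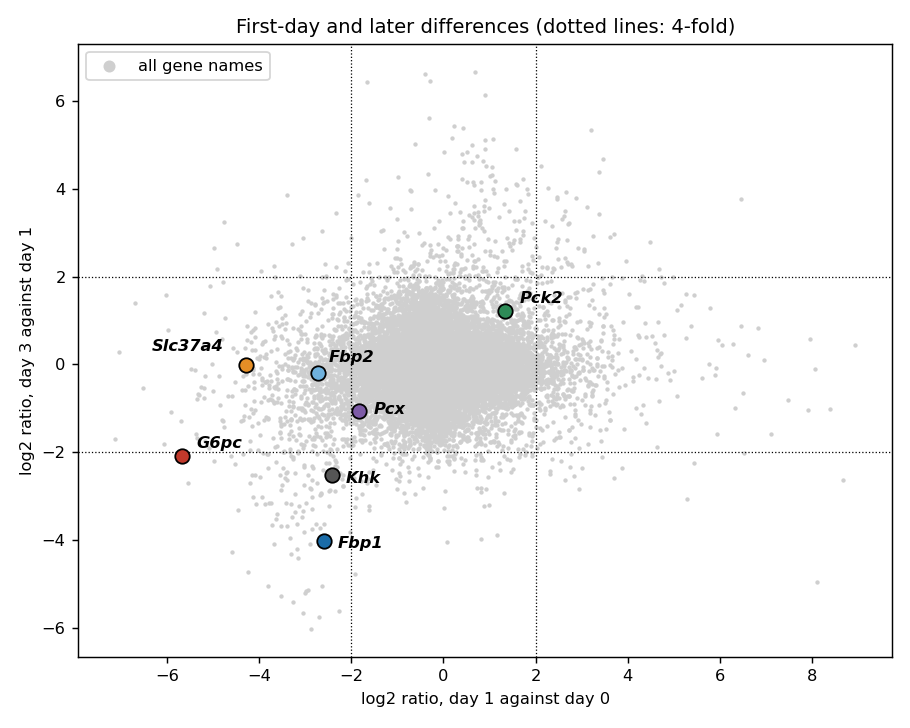
Log2 ratio of day 3 against day 1 (vertical) plotted on the log2 ratio of day 1 against day 0 (horizontal), with dotted lines at 4-fold. Every gene name tested in all 3 comparisons is in grey and the 7 genes are in colour. The axes share the day 1 array. G6pc is far left and just past the lower line (-5.67 and -2.08), Fbp1 is lowest (-2.60 and -4.02), Slc37a4 and Fbp2 lie near 0 on the vertical axis, and Pck2 is the only member in the upper right (1.34 and 1.23).

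Counted together, 5 of the 7 genes were at least 4-fold lower on day 1 against day 0. None reached 4-fold in the other direction. Over all 19895 genes tested in this comparison, 5.04% were at least 4-fold lower and 3.23% at least 4-fold higher. The median log2 ratio of the 7 was -2.60 on day 1. On day 3 against day 0, 6 were at least 4-fold lower and 1 at least 4-fold higher, against 7.95% and 5.07% of 20124 genes, and the median was -4.31. Between day 1 and day 3, Fbp1, Khk and G6pc were at least 4-fold lower and no gene reached 4-fold higher, against 1.27% and 1.54% of 19998 genes, with a median of -1.06 beside one of -0.05 over all genes. With a 2-fold rule, 6 genes were lower and 1 was higher on day 1 against day 0, beside 15.4% and 13.1% of all genes. The counts were again 6 and 1 on day 3 against day 0, beside 22.1% and 16.0%, and 4 and 1 between day 1 and day 3, beside 8.28% and 6.83%. Pck2 missed the 2-fold line on day 1 with reference gene scaling (0.76 in log2). Pcx missed it between day 1 and day 3 under 5 of 10 alternatives, from -0.96 with median centring to -0.61 with spike-ins. Several of the 10 repeat the values of a gene with 1 probe by construction. The genes were chosen with such values known, so these shares describe them and test nothing.

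The order of the ratios changed between the days. On day 1 G6pc was lowest, then Slc37a4. Fbp2, Fbp1 and Khk followed at -2.73, -2.60 and -2.43, with gaps of 0.12 and 0.17 that are under the spread between probes of a gene. Pcx came next at -1.84 and Pck2 last. On day 3 the order was G6pc (-7.75), Fbp1 (-6.62), Khk (-4.96), Slc37a4 (-4.31), Fbp2 (-2.93), Pcx (-2.90) and Pck2 (2.57). Of these neighbours, Fbp2 and Pcx differed by 0.03, under the spread between probes, and the other gaps were over it.

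The rest of the pathway was read from lists that were also drawn up with earlier results known. Beside the counts of each list stand the shares over all genes. These were 5.04% at least 4-fold lower and 3.23% higher on day 1, and 7.95% and 5.07% on day 3. Of 12 other genes of gluconeogenesis, fructose and glycerol metabolism, 4 were at least 4-fold lower on day 1 and 10 on day 3, with none at least 4-fold higher, and the median log2 ratios were -1.73 and -3.20. The day 1 count depended most on the scaling, from 3 with median centring or spike-ins to 10 with reference genes, while the day 3 count was 9 or 10 under every alternative run. The fructose transporter gene Slc2a5 gave 21.0, 0.384 and 0.0926 times the 75th percentile and was 54.6-fold lower on day 1 and 227-fold lower on day 3. Its log2 ratios lay within 0.10 and 0.07 of those of G6pc. Sord, which makes fructose from sorbitol, gave 67.0, 6.61 and 2.21 times and was 10.1-fold and 30.3-fold lower. Dak, the triose kinase gene now called Tkfc, was 4.38-fold and 8.02-fold lower, with a day 1 log2 ratio of -1.92 under median centring. In the glycerol branch Gpd1 was 8.86-fold and the glycerol kinase gene Gyk 9.60-fold lower on day 3, with a log2 ratio of -1.69 by the dimmer probe of Gpd1. The genes of this list within 2-fold on day 3 were Got1 and G6pc3. G6pc2, a phosphatase gene known from pancreatic islets, was dim on day 3, not well above background, so its fold there is a bound, at least 7.62-fold lower than in fresh cells, and normexp gave a log2 ratio of -1.34.

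The steps that both directions share stood differently from the steps of gluconeogenesis alone. Of 8 genes, from Gpi1 to Eno1, none differed by 4-fold in either direction on day 1 by its brightest probe. Reference gene scaling took Aldoc past that line on day 1 (-2.22 in log2). On day 3 the aldolase gene Aldoc passed that line, being 4.29-fold lower, but missed it with median centring (-1.79 in log2), spike-ins (-1.44) and the mean of its probes (-1.74). Eno1 passed it upward with median centring (2.27) and spike-ins (2.62). The other 7 had log2 ratios on day 3 between 0.44 for Gpi1 and 1.97 for Eno1. The median of the list was 0.48 on day 1, which reference gene scaling turns to -0.09, and 0.74 on day 3. One probe of Tpi1 ran the other way, at -2.03 on day 1 and -2.09 on day 3. Gapdh and Pgk1 are in this list and also among the 12 reference genes, so reference gene scaling is not independent of the list.

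The enzymes that work against the bypasses did not run in 1 direction. Of 13 genes, 1 was at least 4-fold lower and 1 at least 4-fold higher on day 1, and 1 and 3 on day 3. Over all genes the shares were 5.04% and 3.23% on day 1, and 7.95% and 5.07% on day 3. With so few calls, the counts describe single genes and not the list. The list's median log2 ratio was 0.30 on day 1 and 0.31 on day 3, and both change sign with reference gene scaling, at -0.27 and -0.02. Against G6pc stands hexokinase, and Hk2 gave 0.0652, 16.1 and 23.9 times the 75th percentile, 246-fold higher on day 1 and 367-fold higher on day 3. The Hk2 signal was dim on day 0. Over all processing its log2 ratios ran from 7.16 to 8.15 on day 1 and from 7.78 to 9.17 on day 3. The difference of the log2 ratios of G6pc and Hk2, which rests on the same dim signal, was -13.61 on day 1 and -16.27 on day 3. Hk1 had log2 ratios of 0.73 and 0.63, with probes from -2.63 to 1.01 on day 3. Against Fbp1 stand the phosphofructokinases, of which Pfkl was 2.20-fold higher and Pfkm 4.34-fold lower on day 3. Pfkm then missed the 4-fold line with median centring (-1.81 in log2) and spike-ins (-1.46). Pfkfb1, whose product makes and removes the activator fructose 2,6-bisphosphate, was 7.24-fold higher. Against Pcx and the carboxykinases stands pyruvate kinase, where Pkm2 was 5.66-fold higher on day 3 by its brightest probe and 0.34 in log2 ratio by its lowest, and the mean of its probes was 1.60.

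**Figure D3:**
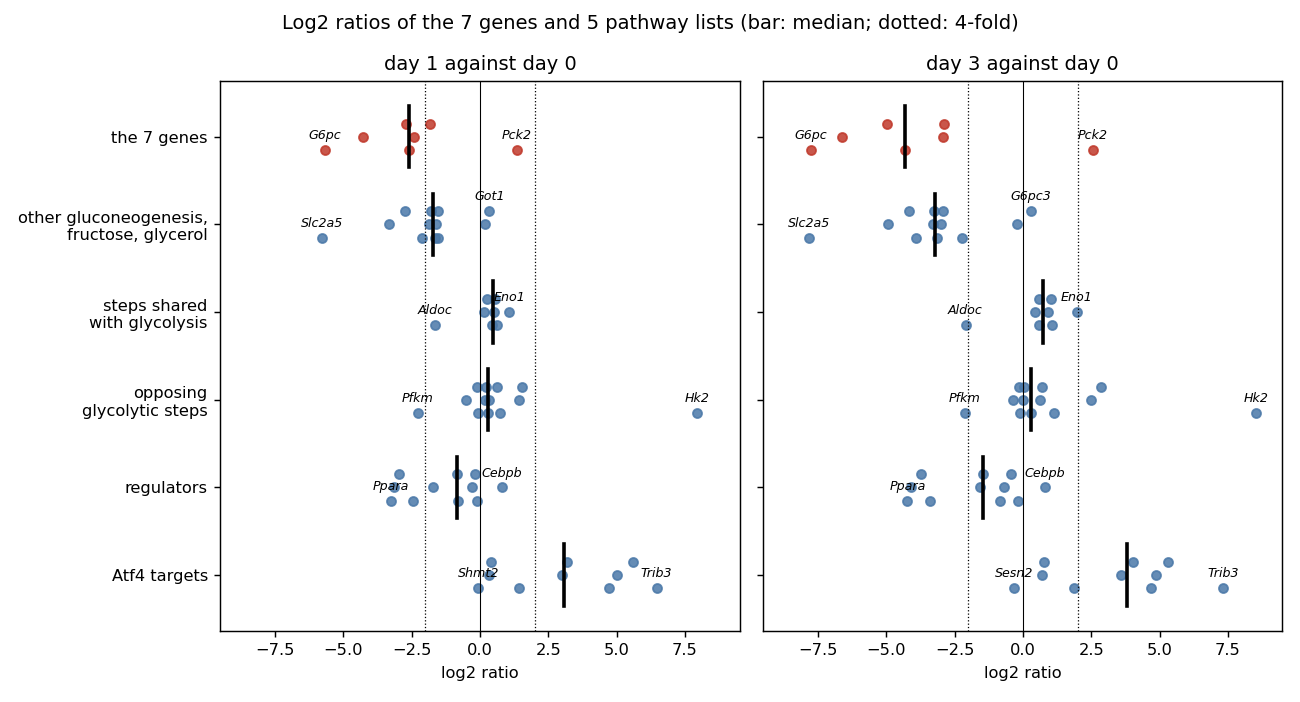
Log2 ratios of day 1 (left) and day 3 (right) against day 0 for the 7 genes, in red, and for the members of 5 pathway lists, in blue; bars are medians, dotted lines 4-fold, and the lowest and highest gene of each row are named. The 7 genes and the other gluconeogenesis, fructose and glycerol genes lie mostly left of 0, with medians of -4.31 and -3.20 on day 3, the Atf4 targets mostly right (3.82), and Hk2 is the extreme at 8.52.

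Among 11 regulators of gluconeogenic genes, 4 were at least 4-fold lower on both days and no member reached 4-fold higher by its brightest probe, with medians of -0.84 and -1.45. The probes of Creb1 disagreed, reaching 2.27 on day 1 and 2.11 on day 3 by the highest and -0.28 and -0.18 by the brightest. The 4 were the coactivator gene Ppargc1a, 7.74-fold lower on day 1 and 13.2-fold on day 3, the nuclear receptor genes Hnf4a (8.87-fold and 10.6-fold) and Ppara (9.63-fold and 18.8-fold), and Klf15 (5.49-fold and 17.0-fold). The day 3 log2 ratios of the probes of Hnf4a ran from -3.91 to -0.87, and the other probe of Klf15 gave -1.43. On day 1 the mean of the Klf15 probes was -1.87, short of 4-fold. Foxo1, a mediator of insulin's effect on G6pc, had a log2 ratio of -0.84 on each day.

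Pck2 is known as a target of the transcription factor Atf4, so genes with the same regulator were listed beside it. The part of Atf4 in the ratios of Pck2 was not tested. Of 10 Atf4 targets, 6 were at least 4-fold higher on each later day, and no target reached 4-fold lower. The median log2 ratios were 3.09 and 3.82. With median centring or spike-in scaling, 7 were at least 4-fold higher on day 3. Asns, for asparagine synthetase, was 32.2-fold higher on day 1 and 29.1-fold on day 3, and Phgdh, the first enzyme of serine synthesis, 9.01-fold and 16.5-fold. Trib3 was 88.3-fold and 162-fold higher by its brighter probe, with log2 ratios of 2.75 and 3.80 by the other. Psat1, at 2.69-fold and 3.68-fold, lay closest to Pck2 among the targets higher on both days by more than 2-fold. Shmt2, Ddit3 and Sesn2 were within 2-fold of day 0 on both days.

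Genes of like pattern were taken as the 3 closest in the pair of log2 ratios against day 0, over 3 arrays and 16291 other gene symbols, a description that rests on 2 numbers per gene. For G6pc these were Slc2a5 at a distance of 0.12, Acnat2 at 0.40 and Hsd3b2 at 0.51, and 2 genes lay within 0.5. For Fbp1 they were Acsm2, Cyp2d22 and Treh at 0.22 to 0.39, with 6 genes within 0.5. For Khk they were Glb1l, S100g and Napsa at 0.18 to 0.24, and for Slc37a4 they were Tmem174, Fam101a and Slc10a2 at 0.04 to 0.09, each with 24 genes within 0.5. The patterns of Fbp2, Pcx and Pck2 were more common, with 155, 166 and 133 genes within 0.5. The closest were Lrrc4b for Fbp2, Ankrd43 for Pcx and Nfkbil2 for Pck2.

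The promoters of G6pc, Khk and Pck2 are shown because 2 of these genes were lower and the third higher in culture. The 250 bases before the start site are taken from RefSeq (GRCm38.p6), which held 10 windows for all 7 genes. The G+C content was 43.2% in G6pc, 67.2% in Khk and 51.6% in Pck2, beside a median of 52.4% over 32851 windows of all genes. The bases held 2, 18 and 6 CG pairs in that order, in capitals below, beside a median of 6. The lines are G6pc at chr11:101367466-101367715, Khk at chr5:30921309-30921558 and Pck2 at chr14:55540016-55540265, all on the plus strand and written toward the start site.
G6pc: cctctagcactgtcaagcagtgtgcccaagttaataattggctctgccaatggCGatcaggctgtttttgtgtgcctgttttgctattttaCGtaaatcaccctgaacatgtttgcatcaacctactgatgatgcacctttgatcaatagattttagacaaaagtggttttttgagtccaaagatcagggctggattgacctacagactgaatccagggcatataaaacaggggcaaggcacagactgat
Khk: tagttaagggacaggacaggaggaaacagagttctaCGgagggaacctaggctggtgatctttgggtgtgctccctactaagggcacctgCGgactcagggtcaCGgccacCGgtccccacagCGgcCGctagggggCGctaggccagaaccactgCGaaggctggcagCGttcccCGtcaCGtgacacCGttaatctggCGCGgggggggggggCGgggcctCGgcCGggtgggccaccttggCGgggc
Pck2: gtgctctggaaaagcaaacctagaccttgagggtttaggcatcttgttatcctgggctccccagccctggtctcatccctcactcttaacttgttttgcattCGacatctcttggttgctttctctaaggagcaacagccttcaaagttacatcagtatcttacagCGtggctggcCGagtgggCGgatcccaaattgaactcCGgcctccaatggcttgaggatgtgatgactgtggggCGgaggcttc

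The labelled cell type was checked against marker genes. All 9 proximal tubule markers were well above background on each array. Their summed signal was 481, 46.9 and 9.21 times the 75th percentile on days 0, 1 and 3. By the brightest probe, 9 of 9 were at least 4-fold lower on each later day, with medians of -3.29 and -5.59. Over all genes, the shares at least 4-fold lower were 5.04% on day 1 and 7.95% on day 3. Slc7a13 was dim, at 0.0738, 0.0184 and 0.0151 times the 75th percentile on days 0, 1 and 3. The lowest signals classed well above background were 1.14%, 1.06% and 0.936% of that percentile. On day 1 Slc5a2 (-2.03 in log2) and Slc7a13 (-2.01) passed the line by less than the shift from median centring or spike-in scaling. Other probes missed it, in Lrp2 (-1.84) and Slc5a12 (-1.18) on day 1 and in Slc5a12 (-0.96) and Slc7a13 (-1.86) on day 3. In a bulk sample, fewer cells of a type and less RNA per cell cannot be told apart. Markers of other nephron segments were also present in the fresh sample and lower later: the summed signals were 333, 87.4 and 14.3 for the loop of Henle (Umod, Slc12a1), 47.4, 2.37 and 1.04 for the distal tubule, 39.3, 5.78 and 1.83 for principal cells, and 16.2, 4.78 and 0.740 for intercalated cells. Sums for podocytes were 3.57, 0.568 and 1.02, for endothelium 6.10, 4.09 and 1.11, for macrophages and leukocytes 1.12, 0.872 and 0.787, for fibroblasts 2.96, 3.40 and 2.39, and for hepatocytes 2.61, 0.785 and 1.03. The members of the last pair of lists parted on day 3 against day 0. Col1a1 was 7.12-fold higher by its brightest probe, while Pdgfrb was 1.84-fold and Dcn 1.95-fold lower. The log2 ratios of the Col1a1 probes ran from -0.21 to 2.83. Tat was 1.92-fold higher while Alb was 23.5-fold and Apoa2 7.94-fold lower. The sum of the mesothelial markers Msln and Upk3b was 0.0726, 0.458 and 17.8, the only list of cell markers with a median at least 4-fold higher on day 3. No marker of these lists was below background on any array. The part of these cells in the ratios of the 7 genes was not tested.

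**Figure D4:**
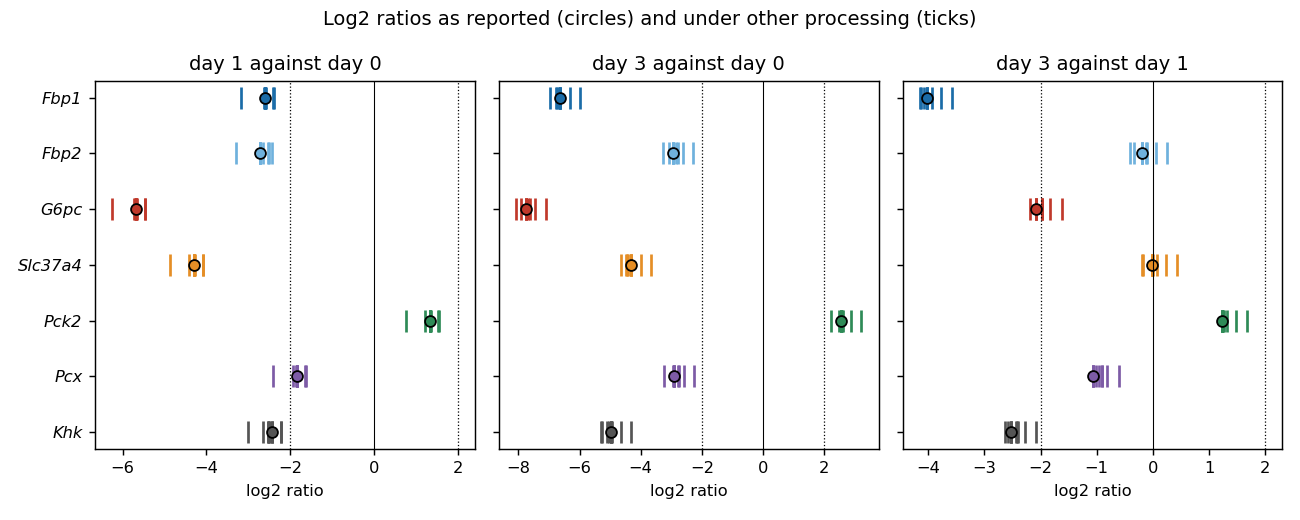
Log2 ratios of the 7 genes in the 3 comparisons, as reported (circles) and under 10 other ways of processing, 11 for Khk (ticks), with dotted lines at 4-fold. Against day 0 each gene stays on its side of 0, while Fbp2 and Slc37a4 straddle 0 between day 1 and day 3 and G6pc straddles the 4-fold line there (-2.20 to -1.63).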

How the data were processed

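Cy3-labelled cRNA was made from total RNA by linear amplification, per the labels' protocols, and 1 sample was hybridised to each Agilent array. Spots were measured with Agilent Feature Extraction 10.5.1.1 per the file headers (9.1 per the submitters' processing notes). The deposited processed signal is an intensity, background subtracted and spatially detrended. Per the file headers and columns, the mean, local background and background-subtracted signals are also intensity values, and the flags and the detrending divisor are of other kind. A multiplicative detrending step was applied on days 0 and 1 but not on day 3. The authors' deposited value table is a linear ratio of processed signal to the array's 75th percentile: 43379 of 43379 values of each array lay within 0.001 of it, and the medians were 0.187, 0.162 and 0.151.

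The log2 processed signal minus the log2 75th percentile of the non-control spots was computed with Python 3.11.15 and pandas 2.3.3. Outlier spots (94, 102 and 85) were left out, and none was saturated. A gene is a name in the array file other than an accession, represented by its probe with the highest mean. A gene entered a comparison if either array had it well above background. Where a probe was well above background on only 1 of them, the ratio is a bound. For the other array it takes the higher of the probe's own signal and that array's lowest signal well above background. Where this would make that other array the higher, the ratio was set to no difference. With 1 array a day the number of arrays limits the precision and no test was made. The script was tested on simulated data. Alternatives were median centring, quantile normalization, scaling to 12 reference genes or to spike-in spots, normexp with an offset of 50 (limma 3.58.1), the mean of all probes, a filter on both arrays, the value table, naming by accession and, added after the data were seen, no multiplicative detrending and the second Khk probe. The members, lists and motifs searched were chosen with earlier results of these data known. By rule all 7 members were named, and any list member could be, those at least 4-fold apart in some comparison first. Some list members and a motif search of the promoters are not reported here. The genes of like pattern were limited to symbols well above background on all 3 arrays.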

Additional observations from a re-analysis of the deposited data

How the results depend on the processing

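Against day 0, each of the 7 genes kept its direction under the 10 alternatives run. For a gene with 1 probe, some of these repeat the same values, so their agreement was fixed in advance. They are the mean of all probes, the filter on both arrays, the value table and naming by accession. The counts at least 4-fold lower were 5 or 6 on day 1 and 6 on day 3, and the counts at least 4-fold higher were 0 and 1. Between day 1 and day 3 the count lower was 3, or 2 with median centring, quantile normalization, either scaling or normexp, since G6pc, 4.23-fold lower, then missed the 4-fold line. Reference gene scaling gave a median for the 7 of -3.18 on day 1. Spike-in scaling gave -3.65 on day 3 against day 0 and -0.61 on day 3 against day 1. These shift all genes, whose median became -0.70 with reference genes on day 1 and 0.52 with spike-ins on day 3. The share of higher genes among 4-fold calls on day 3 was 39.0%, against 55.0% with median centring, 25.1% with reference genes and 71.4% with spike-ins, and on day 1 39.1%, against 51.1%, 15.0% and 50.7%. Between day 1 and day 3 it was 54.8%, against 62.5%, 71.4% and 81.4%. The share of all genes at least 4-fold lower between day 1 and day 3 was 1.27%, against 0.835% with reference genes, 0.655% with spike-ins and 0.665% with normexp. On day 1 it was 5.04%, against 9.39% with reference genes, and on day 3 7.95%, against 4.25% with spike-ins. The share at least 4-fold higher was 3.23% on day 1, against 1.66% with reference genes, 5.07% on day 3, against 10.6% with spike-ins, and 1.54% between day 1 and day 3, against 2.88% with spike-ins. Signs turned for Slc37a4 (0.080 with median centring, 0.23 with reference genes, 0.44 with spike-ins) and Fbp2 (0.049 with reference genes, 0.25 with spike-ins) between day 1 and day 3. List medians that turned were the shared steps on day 1 (-0.093) and the opposing steps on days 1 and 3 (-0.27 and -0.021) with reference genes. The same list turned between day 1 and day 3 with normexp (-0.047) and without multiplicative detrending (-0.040), and the regulators with spike-ins (0.18). The cause was not tested. With no replicates, a value was taken as moved where it shifted by more than the median SD between probes of a gene. No paired analysis was possible because each day has 1 sample. No replicate could be left out, and 6 of the 7 genes rest on 1 probe with 1 spot.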
